A study of Mus musculus with 12 samples.

Results

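The genes described are 10 transcripts of the walls of brain blood vessels, taken from the hippocampus of mice of 4 genotypes. They were chosen by symbol, as the rows of the deposited read count table whose Ensembl identifiers carry the symbols Cldn5, Flt1, Pecam1, Abcb1a, Pdgfrb, Rgs5, Vtn, Abcc9, Acta2 and Tagln, out of 55385 rows in all. All 10 were found and all 10 passed the filter on low counts, among 15905 genes tested. The 4 groups of 3 libraries were Kcnip3 KO-5xFAD, 5xFAD with Kcnip3 intact, Kcnip3 KO without transgenes, and WT. Kcnip3 KO-5xFAD is given as Kcnip3 -/- and carries the 5xFAD transgenes. The mice are described as adult, without an age, sex or strain. 5xFAD transgenes encode mutant human forms of the amyloid precursor protein and presenilin under Thy1 regulatory sequences, which drive expression in neurons. Kcnip3 encodes KChIP3 (also DREAM or calsenilin), a calcium-binding protein of neurons that binds Kv4 potassium channels and can also act as a repressor of transcription. The series title gives the question behind the design as the part KChIP3 plays in Alzheimer's disease. The labels do not say that each library is a separate animal, so the p-values measure the spread between libraries, which may in part be technical.

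Brain capillaries are tubes of endothelial cells sealed by tight junctions and loaded with efflux pumps, which together make the blood-brain barrier. Pericytes lie on the capillary wall inside its basement membrane, and smooth muscle cells wrap the arterioles and contract to set blood flow. In tissue affected by amyloid, vessels are of interest as a route of peptide clearance and as a site of amyloid deposition. In whole hippocampus these cells supply a small share of the RNA, and fewer cells of a type cannot be told apart from less RNA per cell.

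Total counts per library were 7664407 to 11310714, and levels are CPM, counts scaled to a common library size by TMM. Kcnip3 was lower in all 6 libraries labelled as knockout than in the 6 others (138 to 162 CPM). The library labelled Kcnip3 KO 3 held 125 CPM, apart from the other knockout libraries at 63.4 to 84.9 CPM. Kcnip3 reads thus remained in every library labelled as knockout, and their source was not tested. Thy1, whose reads include those of the transgene, went against the label in a pair of libraries, with 926 CPM in the library labelled Kcnip3 KO-5xFAD 2 and 2277 CPM in the library labelled WT 3. The other libraries with transgenes held 2592 to 4236 CPM and the other libraries without them 747 to 887 CPM. This pair, called the Thy1-discordant pair from here on, was left out in a second fit, whose values are given beside those of the full set. The library labelled Kcnip3 KO 3 stayed in both fits. Summed markers of hippocampal neurons were 507 to 857 CPM, with all 9 markers above 0 in every library and Wfs1 the highest at a mean of 184 CPM. No other brain region was sampled, so these values do not test the hippocampal label.

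Per unit of length, the vessel genes spanned a wide range. Vtn, vitronectin, an adhesive glycoprotein that brain pericytes secrete, was the highest at 203 ± 23.4 TPM (SD, n = 12 libraries, all genotypes). Cldn5, claudin-5, the main tight junction protein of the barrier, followed at 118 ± 21.8 TPM and lay below Vtn and above Rgs5 in all 12 libraries. Rgs5, a regulator of G protein signalling and a pericyte marker, averaged 60.0 ± 5.58 TPM and lay above Acta2 in 10 of 12 libraries. Acta2, smooth muscle alpha actin, averaged 45.5 ± 21.1 TPM. Pdgfrb, the receptor by which pericytes are recruited to endothelium, came next at 20.8 ± 2.76 TPM. The order of the next members rested on less: Abcb1a (15.3 ± 2.28 TPM) exceeded Flt1 (14.4 ± 1.83 TPM) in 8 of 12 libraries, and Pecam1 (11.6 ± 1.37 TPM) exceeded Tagln (11.5 ± 5.35 TPM) in 9 of 12. Abcc9, the regulatory subunit of a pericyte potassium channel, was lowest in all 12 libraries at 2.24 ± 0.501 TPM. The deposited TPM values fitted lengths of all exons of a gene merged, within 5% for 10435 of 10533 genes compared. Dividing by the longest transcript instead would put Flt1 at 28.2 TPM and Pecam1 at 21.0 TPM, above and level with Pdgfrb at 21.0 TPM.

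**Figure D1:**
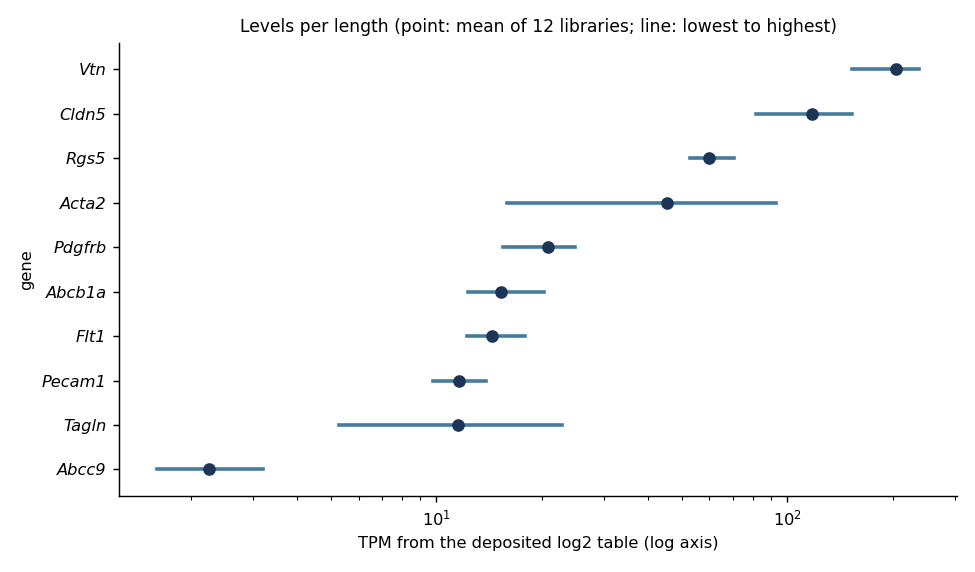
Deposited TPM (horizontal log axis) of the 10 vessel genes, ordered by mean. Points are means over 12 libraries and lines run from the lowest to the highest library, which shows the long lines of Acta2 and Tagln against the short ones of Rgs5 and Flt1.

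Among the endothelial genes, Cldn5 (ENSMUSG00000041378, GRCm38 chromosome 16, 18776847 to 18778262, plus strand) had 43.0, 54.3 and 48.3 CPM in Kcnip3 KO-5xFAD, 49.8, 67.9 and 69.9 CPM in 5xFAD, 34.2, 49.3 and 56.7 CPM in Kcnip3 KO, and 60.7, 51.5 and 33.3 CPM in WT. The groups overlapped in every comparison, and the lowest library was the one labelled WT 3. Its log2 fold change was 0.37 ± 0.22 (SE) in 5xFAD against WT and -0.37 ± 0.22 in Kcnip3 KO-5xFAD against 5xFAD (edgeR adjusted p = 0.321 and 0.570). Removing a trend with GC content and transcript length took the first of these to 0.09. Cldn5 is a short gene with a GC content of 60.5%, and the part of GC content or length in this difference was not tested. Without the Thy1-discordant pair the log2 fold changes were 0.16 and -0.46. Both remaining Kcnip3 KO-5xFAD libraries then lay below every 5xFAD library (adjusted p = 0.536 by edgeR), as was so for 13.5% of all genes.

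Flt1 (ENSMUSG00000029648, chromosome 5, 147561604 to 147726011, minus strand) encodes VEGF receptor 1, a decoy receptor that limits VEGF signalling. It had 66.0, 54.6 and 49.5 CPM in Kcnip3 KO-5xFAD, 63.2, 61.3 and 60.4 CPM in 5xFAD, 53.7, 66.8 and 59.5 CPM in Kcnip3 KO, and 71.6, 51.9 and 56.2 CPM in WT. It was among the most even members, with a highest library 1.45 times the lowest and no group apart from another. Its 95% intervals ran from 0.753-fold to 1.26-fold over the 4 comparisons of genotypes.

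Pecam1 (ENSMUSG00000020717, chromosome 11, 106654217 to 106750628, minus strand) encodes the adhesion molecule CD31 of endothelial cell contacts. Its levels were 20.5, 19.6 and 19.8 CPM in Kcnip3 KO-5xFAD, 25.7, 25.2 and 24.7 CPM in 5xFAD, 17.5, 20.4 and 25.2 CPM in Kcnip3 KO, and 25.4, 21.8 and 19.2 CPM in WT. All 3 Kcnip3 KO-5xFAD libraries lay below all 3 5xFAD libraries, with a log2 difference of -0.34 ± 0.14, or 0.792-fold with a 95% interval of 0.642 to 0.977. The unadjusted p was 0.0320 and the adjusted p 0.453 by edgeR, so the difference did not pass. Of all genes tested, 7.29% were likewise lower in this comparison without overlap. The value was -0.32 without the Thy1-discordant pair (adjusted p = 0.553). The Kcnip3 KO and WT libraries spread from 17.5 to 25.4 CPM.

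Abcb1a (ENSMUSG00000040584, chromosome 5, 8660077 to 8748575, plus strand) encodes the efflux pump P-glycoprotein, which expels drugs at the barrier and has been studied as an exporter of amyloid peptide. It had 26.5, 22.2 and 24.3 CPM in Kcnip3 KO-5xFAD, 25.4, 23.7 and 25.8 CPM in 5xFAD, 23.2, 32.0 and 23.4 CPM in Kcnip3 KO, and 30.7, 24.7 and 24.0 CPM in WT. The groups overlapped throughout, and its log2 fold changes lay between -0.10 and -0.02 in the 4 comparisons of genotypes. In 5xFAD against WT its fold was 0.944, with an interval of 0.762 to 1.17. The paralogue Abcb1b, 87.7% identical over the coding sequence, averaged 4.68 ± 1.18 CPM (SD, n = 12), beside 25.5 ± 3.00 CPM for Abcb1a, and how reads matching both were counted is not stated.

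Among the pericyte genes, Pdgfrb (ENSMUSG00000024620, chromosome 18) had 36.4, 32.4 and 34.5 CPM in Kcnip3 KO-5xFAD, 41.3, 35.6 and 41.2 CPM in 5xFAD, 29.5, 34.8 and 37.9 CPM in Kcnip3 KO, and 39.0, 32.0 and 24.3 CPM in WT. The highest libraries were of 5xFAD and the lowest was the one labelled WT 3. Its log2 fold change in 5xFAD against WT was 0.31 ± 0.15 (adjusted p = 0.215 by edgeR), the smallest adjusted p among the 10 genes in that comparison, and it was 0.15 without the Thy1-discordant pair (adjusted p = 0.636).

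Rgs5 (ENSMUSG00000026678, chromosome 1, 169655501 to 169695813, plus strand) had 98.1, 89.9 and 73.7 CPM in Kcnip3 KO-5xFAD, 81.9, 88.6 and 89.9 CPM in 5xFAD, 69.2, 77.8 and 82.1 CPM in Kcnip3 KO, and 94.9, 81.1 and 79.2 CPM in WT. Its highest library was 1.42 times its lowest, the narrowest spread of the 10. No pair of groups stood apart, and its fold stayed between 0.898 and 1.14 in the 4 comparisons.

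Vtn (ENSMUSG00000017344, chromosome 11, 78499091 to 78502324, plus strand) had 132, 139 and 135 CPM in Kcnip3 KO-5xFAD, 143, 131 and 136 CPM in 5xFAD, 90.0, 116 and 121 CPM in Kcnip3 KO, and 143, 133 and 108 CPM in WT. All 3 Kcnip3 KO-5xFAD libraries lay above all 3 Kcnip3 KO libraries. The log2 difference was 0.31 ± 0.12, or 1.24-fold with an interval of 1.04 to 1.48 (unadjusted p = 0.0229, adjusted p = 0.402 by edgeR), and 8.37% of all genes tested were higher there without overlap. Without the Thy1-discordant pair it was 0.29 (adjusted p = 0.553). In the same reduced set Vtn was also lower in all 3 Kcnip3 KO libraries than in both WT libraries, at -0.34 ± 0.13 (unadjusted p = 0.0176, adjusted p = 1.00 by edgeR), where 9.70% of genes were lower without overlap. These comparisons share the Kcnip3 KO libraries, of which Kcnip3 KO 1 was lowest for Vtn, Rgs5, Pecam1 and Tagln alike.

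Abcc9 (ENSMUSG00000030249, chromosome 6, 142587862 to 142702315, minus strand) encodes SUR2, which with Kir6.1 forms the ATP-sensitive potassium channel of pericytes. It had 4.55, 5.00 and 4.67 CPM in Kcnip3 KO-5xFAD, 6.35, 4.54 and 6.70 CPM in 5xFAD, 4.81, 6.40 and 4.03 CPM in Kcnip3 KO, and 7.76, 5.21 and 6.37 CPM in WT. These rest on 32 to 74 counts per library, where 32 counts carry an exact 95% Poisson interval of 21.9 to 45.2 that covers counting error only. The groups overlapped in every comparison. In 5xFAD against WT the fold was 0.916, with an interval of 0.655 to 1.28.

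**Figure D2:**
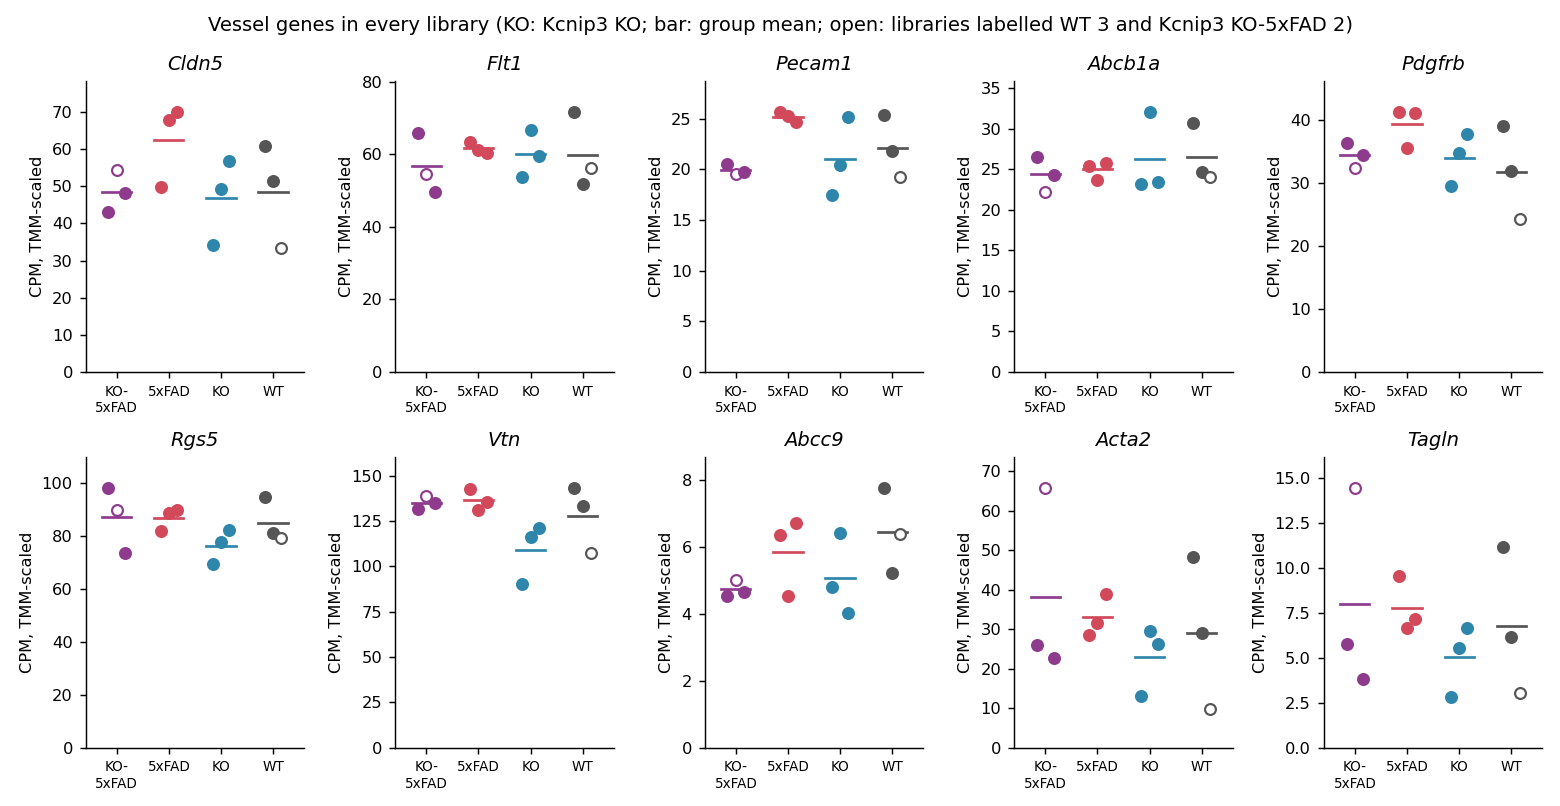
TMM-scaled CPM (vertical axis from 0) of the 10 genes in each library of the 4 groups, with group means as bars and the Thy1-discordant pair as open circles. Pecam1 in Kcnip3 KO-5xFAD (19.6 to 20.5 CPM) lies below 5xFAD (24.7 to 25.7 CPM), and the open circles are the extremes of Acta2, at 65.8 and 9.92 CPM.

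In 5xFAD against WT, 0 of the 10 genes were called at an adjusted p under 0.05 by edgeR's quasi-likelihood test, where 3.53% of all genes tested were called (562 of 15905). That count over all genes was 1 when WT 1, 5xFAD 2 or 5xFAD 3 was left out, 13 without WT 3, 232 without Kcnip3 KO-5xFAD 3 and 2117 without 5xFAD 1, while that of the 10 genes was 0 each time. In Kcnip3 KO against WT 0 of 10 were called beside 0.0503% of all genes, and in Kcnip3 KO-5xFAD against 5xFAD 0 of 10 beside 0.0692%. In Kcnip3 KO-5xFAD against Kcnip3 KO 0 of 10 were called, as were 0% of all genes, or 193 genes without the library labelled Kcnip3 KO-5xFAD 2. The interaction asks whether the 5xFAD effect differs with and without the Kcnip3 knockout, and there 0 of 10 and 0% of all genes were called. At an unadjusted p under 0.05 the counts of these 10 genes were 0, 0, 1 (Pecam1), 1 (Vtn) and 0 in the same order, beside 25.3%, 4.51%, 10.4%, 10.4% and 5.26% of all genes. DESeq2 and limma on the deposited log2 TPM also called 0 of 10 in each of the 5, while over all genes DESeq2 called 1379, 26 and 29 in the first 3 and limma 238, 10 and 13. DESeq2 called 134 in Kcnip3 KO-5xFAD against Kcnip3 KO and 3 in the interaction, and limma 0 and 0. Without the Thy1-discordant pair the 10 genes again gave 0 calls in all 5, beside 1.30%, 0.0435%, 0.0373%, 1.30% and 0.00622% of 16076 genes.

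A missed threshold does not show that levels were alike, and the intervals show how large a difference remained possible. For the 8 endothelial and pericyte genes the fitted folds were 0.916 to 1.29 in 5xFAD against WT, and their 95% intervals reached down to 0.655 (Abcc9) and up to 1.81 (Cldn5). In Kcnip3 KO-5xFAD against 5xFAD the folds were 0.776 to 1.01, with intervals reaching 0.554 (Cldn5) and 1.21 (Abcb1a). In Kcnip3 KO against WT the folds were 0.787 to 1.07, and in Kcnip3 KO-5xFAD against Kcnip3 KO 0.931 to 1.24. No interval of these 8 genes in those 4 comparisons reached 2-fold in either direction. Acta2 and Tagln allowed far more, from 0.468 to 2.79 for Acta2 in 5xFAD against WT and up to 4.11 for Acta2 in Kcnip3 KO-5xFAD against Kcnip3 KO.

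**Figure D3:**
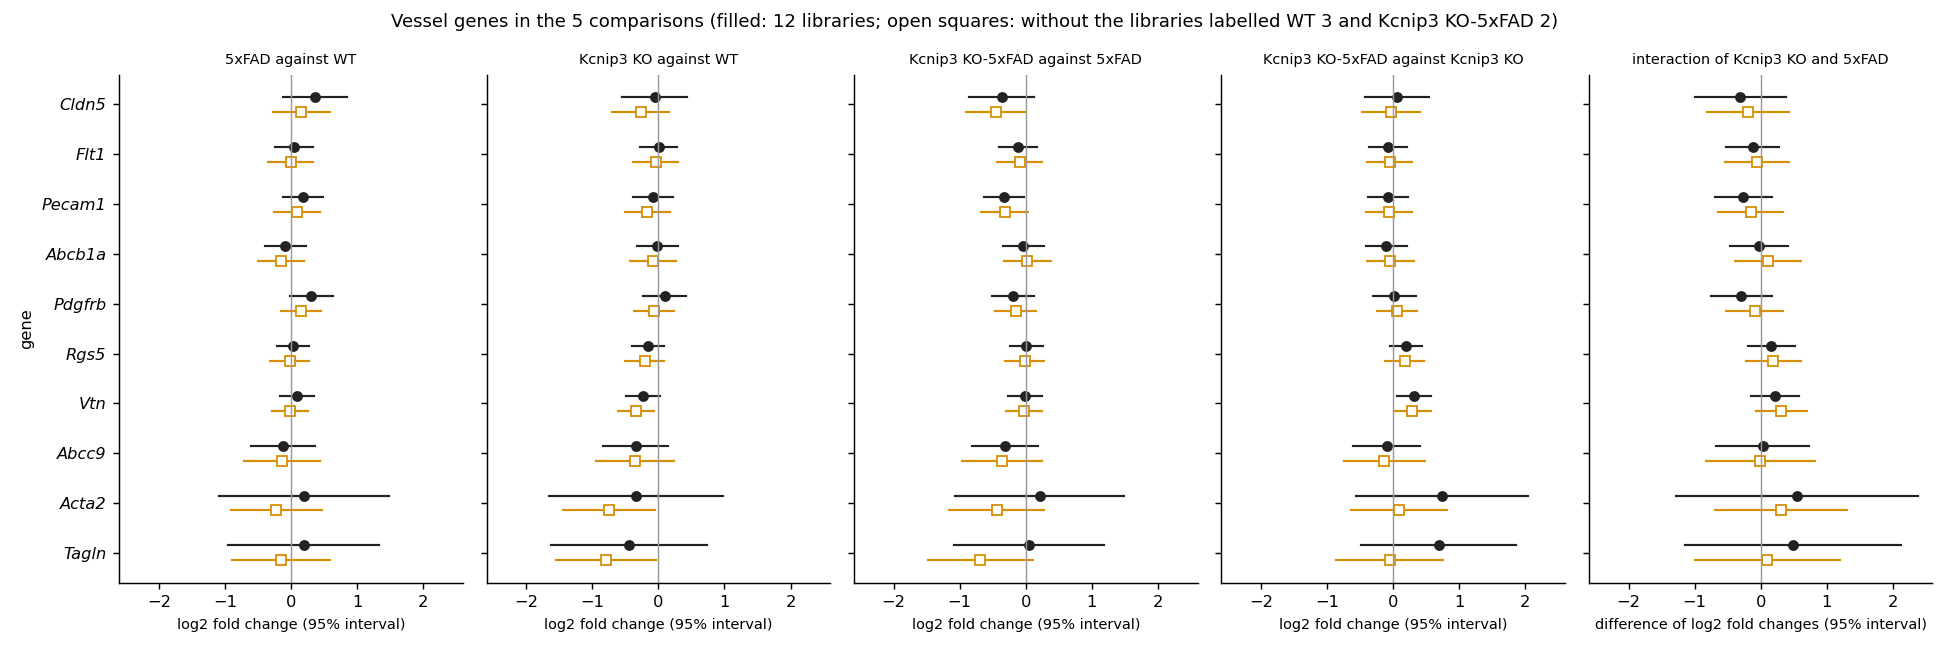
Log2 fold changes (horizontal axis) of the 10 genes in the 4 comparisons of genotypes and their interaction, with 95% intervals, from all 12 libraries (filled) and without the Thy1-discordant pair (open squares). The intervals of Acta2 and Tagln are the widest in each panel, and in Kcnip3 KO-5xFAD against 5xFAD their values change sign, for Acta2 to -0.44 in place of 0.21.

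The direction of the 10 genes was mixed. In 5xFAD against WT 8 of 10 had a higher mean and 2 a lower one, with a median log2 fold change of 0.14 beside 0.014 over all genes tested. That balance was not stable, since without the Thy1-discordant pair only 3 of 10 were higher and the median was -0.02, and scaling by library size alone turned Flt1 and Rgs5 negative. In Kcnip3 KO against WT 8 of 10 were lower with a median of -0.12 beside 0.0016 over all genes, and 10 of 10 were lower with a median of -0.24 without that pair. In Kcnip3 KO-5xFAD against 5xFAD 7 of 10 were lower with a median of -0.08 beside -0.0042 over all genes, and 9 of 10 with -0.24 without them. In Kcnip3 KO-5xFAD against Kcnip3 KO 6 of 10 were higher, at a median of 0.04, and 4 of 10 at -0.04 without them. All-gene medians are not given here for the set without the Thy1-discordant pair. The comparisons share libraries, and genes of a library are not independent, so these counts carry no test. Without the pair WT rested on 2 libraries, and WT 1 was the highest of those left for Flt1, Vtn, Abcc9, Acta2 and Tagln. Kcnip3 KO 1 was then the lowest for Cldn5, Pecam1, Abcb1a, Pdgfrb, Rgs5, Vtn, Acta2 and Tagln.

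The contractile genes varied more than the other 8. Acta2 (ENSMUSG00000035783, chromosome 19, 34241090 to 34255590, minus strand) encodes the actin of smooth muscle filaments, and Tagln (ENSMUSG00000032085, chromosome 9, 45929619 to 45936058, minus strand) encodes transgelin, also SM22-alpha, which binds them. Smooth muscle genes of this kind are known to be driven by serum response factor with myocardin at CArG boxes, a motif of a pair of C, a run of A or T and a pair of G. The promoters below show matches to this motif, most of them relaxed, for Acta2 and for Myl9, the regulatory light chain of smooth muscle myosin, whose levels followed those of Acta2 and Tagln most closely after Myh11. They are RefSeq sequences of GRCm38.p6, from 250 bases before to 50 after the start, on the gene's strand, with Acta2 from chr19:34255324-34255623 (minus) and Myl9 from chr2:156775214-156775513 (plus). Capitals mark a strict CArG box (the first in Myl9), relaxed boxes with 1 G or C inside the run (both in Acta2 and the second in Myl9) and, in Acta2, the reverse complement of CATTCC, the motif of TEAD factors.
Acta2 promoter: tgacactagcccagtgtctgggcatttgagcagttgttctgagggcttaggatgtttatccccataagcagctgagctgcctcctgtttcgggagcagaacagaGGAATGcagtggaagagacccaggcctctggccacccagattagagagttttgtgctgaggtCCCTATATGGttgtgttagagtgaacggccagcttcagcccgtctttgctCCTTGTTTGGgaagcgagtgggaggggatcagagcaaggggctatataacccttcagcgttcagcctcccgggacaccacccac
Myl9 promoter: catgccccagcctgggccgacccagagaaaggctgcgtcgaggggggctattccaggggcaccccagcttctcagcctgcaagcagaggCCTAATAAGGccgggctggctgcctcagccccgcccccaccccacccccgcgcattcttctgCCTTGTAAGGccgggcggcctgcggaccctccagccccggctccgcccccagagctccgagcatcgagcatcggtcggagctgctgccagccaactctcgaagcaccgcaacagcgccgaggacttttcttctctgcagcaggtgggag

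Neither box of Acta2 is a strict CArG box, since each holds 1 G or C within the run of A or T; they lie at -84 to -75 and -34 to -25 from the start, with CATTCC on the other strand at -146 to -141. The Myl9 promoter holds a strict box at -161 to -152 and a relaxed box at -99 to -90. The strict box occurred in 1.63% of 32851 RefSeq promoters of the same length, the relaxed box in 8.50%, CATTCC in 14.7% and TATAAA in 13.6%, each searched on both strands. The relaxed box was added to the search after the data were seen. Of the other members, 6 had a promoter in the table (Cldn5, Flt1, Abcb1a, Rgs5, Vtn and Abcc9), and none of these held either box. Des and Il20rb, also among the genes most like Acta2 and Tagln, held neither box, and Tagln, Myh11 and Bvht were not in the table. TATAAA was found in Flt1 at -31 to -26 and in Vtn, and CATTCC in Vtn, Abcb1a and Abcc9. A match describes letters only and shows no binding.

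Acta2 had 25.9, 65.8 and 22.8 CPM in Kcnip3 KO-5xFAD, 28.6, 31.6 and 38.8 CPM in 5xFAD, 13.2, 29.6 and 26.4 CPM in Kcnip3 KO, and 48.3, 28.9 and 9.92 CPM in WT. Tagln had 5.77, 14.4 and 3.81 CPM in Kcnip3 KO-5xFAD, 9.53, 6.66 and 7.15 CPM in 5xFAD, 2.82, 5.56 and 6.67 CPM in Kcnip3 KO, and 11.2, 6.17 and 3.03 CPM in WT. For both genes the library labelled Kcnip3 KO-5xFAD 2 was the highest of all 12 and WT 1 the second, while the library labelled WT 3 and Kcnip3 KO 1 were the 2 lowest. WT thus held both a high and a low library, the low one being the library whose Thy1 level went against its label. The highest library exceeded the lowest 6.63 times for Acta2 and 5.12 times for Tagln, against 1.42 to 2.1 times for the 8 other genes. The coefficient of variation over the 12 libraries was 48.5% for Acta2 and 49.3% for Tagln, and 10.2% to 22.3% for the others. Both extremes of Acta2 were the Thy1-discordant pair. Without it the highest library exceeded the lowest 3.66 times for Acta2 and 3.96 times for Tagln, and 1.38 to 2.04 times for the others, with WT 1 highest and Kcnip3 KO 1 lowest for both contractile genes.

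The spread was also large within genotypes. The SD of log2 CPM within groups was 0.77 for Acta2 and 0.71 for Tagln, and 1.18% and 1.80% of all genes tested had a larger one. For Flt1, Pecam1, Abcb1a, Rgs5 and Vtn it was 0.15 to 0.18, below the median of 0.20 over all genes tested. Cldn5 at 0.33, Abcc9 at 0.25 and Pdgfrb at 0.20 lay in between or at the median. Without the Thy1-discordant pair the SD within groups was 0.44 for Acta2 and 0.46 for Tagln, with 9.66% and 7.78% of genes larger, and 0.14 to 0.28 for the 8 others.

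Acta2 and Tagln kept step with each other. The ratio of Acta2 to Tagln CPM stayed between 3.0 and 6.0 with a median of 4.61, and the root mean square difference of their centred log2 CPM over the 12 libraries was 0.27, less than for Acta2 and any of the 8 others (0.47 to 0.70). By the same measure the genes most like the mean of the pair, among 15428 genes with a mean of at least 1 CPM, were Myh11 (0.22), Myl9 (0.29), Bvht (0.30), Des (0.31) and Il20rb (0.40), beside a median of 0.68 over all of these genes. Myh11 encodes smooth muscle myosin heavy chain, Des encodes the muscle intermediate filament desmin, and Bvht is the long noncoding RNA Braveheart. These values are descriptions over libraries that share a source tissue and carry no test.

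Myh11 had 19.2, 36.0 and 12.4 CPM in Kcnip3 KO-5xFAD, 22.9, 15.6 and 22.5 CPM in 5xFAD, 11.8, 20.1 and 16.0 CPM in Kcnip3 KO, and 25.2, 15.8 and 8.04 CPM in WT. Myl9 had 27.3, 44.5 and 23.0 CPM in Kcnip3 KO-5xFAD, 32.6, 34.7 and 34.2 CPM in 5xFAD, 15.3, 24.6 and 21.5 CPM in Kcnip3 KO, and 37.9, 29.5 and 17.97 CPM in WT. Both were highest in the library labelled Kcnip3 KO-5xFAD 2 and lowest in the library labelled WT 3 and Kcnip3 KO 1. Since they were chosen for likeness to Acta2 and Tagln, this order follows from the choice.

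**Figure D4:**
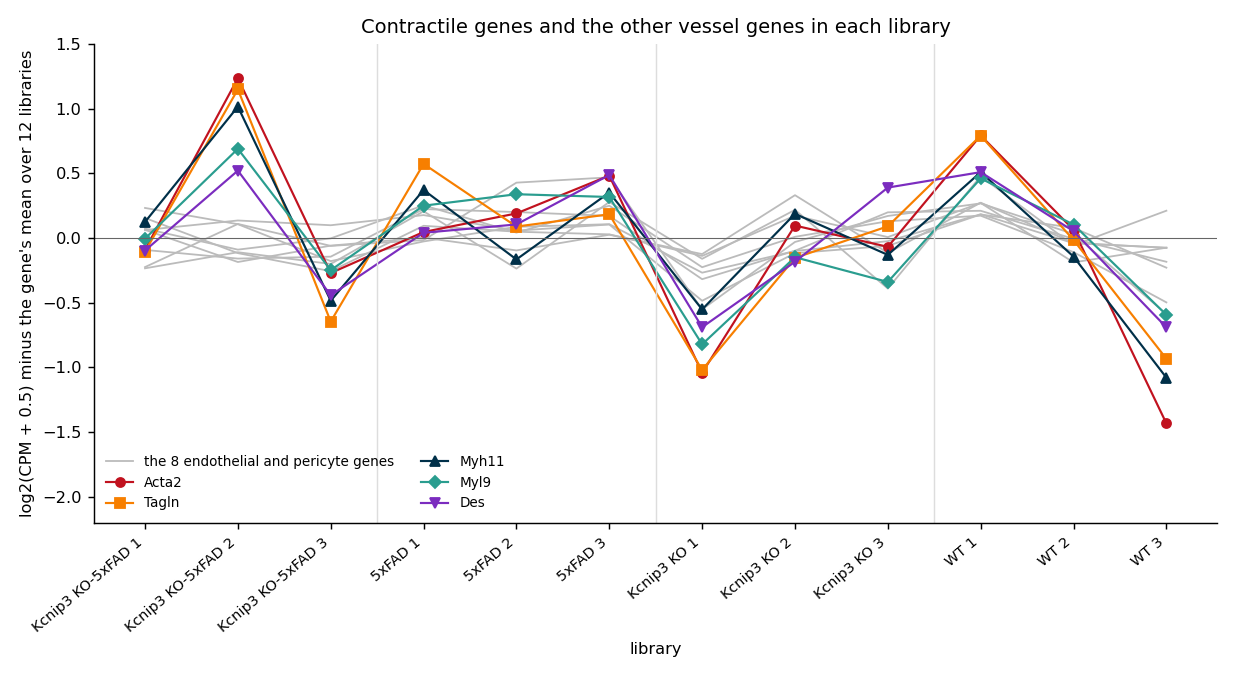
Log2(CPM + 0.5) minus each gene's mean over the 12 libraries (vertical axis) for Acta2, Tagln, Myh11, Myl9 and Des in colour and the 8 endothelial and pericyte genes in grey, by library. The coloured lines peak together at the library labelled Kcnip3 KO-5xFAD 2, where Acta2 is 65.8 CPM, and dip together at Kcnip3 KO 1 and at the library labelled WT 3, where Acta2 is 13.2 and 9.92 CPM.

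With all 12 libraries, the log2 fold changes of Acta2 were 0.19 ± 0.57 in 5xFAD against WT, -0.34 ± 0.58 in Kcnip3 KO against WT, 0.21 ± 0.57 in Kcnip3 KO-5xFAD against 5xFAD and 0.74 ± 0.58 in Kcnip3 KO-5xFAD against Kcnip3 KO (adjusted p = 0.696 to 0.999 by edgeR). Leaving out the Thy1-discordant pair turned the first to -0.22 and the third to -0.44, and reduced the fourth to 0.09. In that reduced set Acta2 and Tagln were lower in Kcnip3 KO than in WT at -0.75 ± 0.31 and -0.79 ± 0.35 (unadjusted p = 0.0375 and 0.0412, adjusted p = 1.00 each by edgeR), with overlapping libraries. Both lay lower without overlap in Kcnip3 KO-5xFAD than in 5xFAD, at -0.44 ± 0.32 and -0.69 ± 0.37 (adjusted p = 0.657 and 0.573), where 13.5% of all genes did so. For the interaction Acta2 was at 0.55 ± 0.81 with a 95% interval of 0.411 to 5.19 as a ratio of folds.

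Other transcripts share sequence or position with the contractile genes. Acta2 is 81.5% to 85.4% identical over the coding sequence to Acta1, Actg2, Actb, Actc1 and Actg1, of which Actb and Actg1 averaged 1111 ± 122 and 481 ± 53.5 CPM (SD, n = 12). Tagln is 69.1% and 69.2% identical to Tagln2 and Tagln3. Tagln overlaps Pcsk7 (265 to 387 counts per library) and Gm48529 (8 to 23 counts) on the opposite strand, and the strand setting of the counting is not given in the sources used here, so some of the 27 to 130 counts of Tagln cannot be assigned with certainty.

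The endothelial and pericyte members had few vessel genes among those most like them. Closest to the mean of the 4 endothelial genes were Esrra, an oestrogen-related receptor (0.07), and Epas1, the hypoxia-inducible factor enriched in endothelium (0.08), followed by Zkscan17, Kiz and Fiz1. Closest to the 4 pericyte genes were AI480526 (0.06), Kiz, Fiz1, Cmc1 and Fra10ac1. The mean profiles of these sets themselves varied by 0.16 and 0.14 in root mean square, and the median difference over all genes was 0.27 and 0.26.

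Beyond the 10 genes, 142 other genes of vessel cells and vessel signalling were listed in 8 groups, and 137 of them passed the filter. In 5xFAD against WT 3 of the 137 rose and 2 fell by edgeR, where 1.91% and 1.62% of all genes tested did, and 27 had an unadjusted p under 0.05, where 25.3% of all genes did. The median log2 fold change was 0.11 beside 0.014 over all genes, and -0.0078 without the Thy1-discordant pair. With all libraries 0 of the 137 were called in each of the other 4 comparisons by edgeR. At an unadjusted p under 0.05 there were 11 in Kcnip3 KO against WT (4.51% of all genes), 13 for Kcnip3 KO-5xFAD against 5xFAD (10.4% of all genes), 11 when Kcnip3 KO-5xFAD was set against Kcnip3 KO (10.4% of all genes), and 7 for the interaction (5.26% of all genes).

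Among basement membrane genes and partners of vitronectin, 1 of 18 rose in 5xFAD against WT. Itgb5, integrin beta 5, which pairs with the alpha v chain to bind vitronectin and is also carried by microglia, had 128, 84.2 and 143 CPM in Kcnip3 KO-5xFAD, 147, 158 and 146 CPM in 5xFAD, 69.0, 85.5 and 76.1 CPM in Kcnip3 KO, and 77.6, 70.9 and 86.3 CPM in WT. All 5xFAD libraries lay above all WT libraries, as for 13.7% of all genes, and the library labelled Kcnip3 KO-5xFAD 2 lay among those without transgenes. The log2 fold change was 0.94 ± 0.16 in 5xFAD against WT (adjusted p = 0.0185 by edgeR), and it was 1.02 without the Thy1-discordant pair (adjusted p = 0.000438). In that reduced set Itgb5 also rose in Kcnip3 KO-5xFAD against Kcnip3 KO, at 0.82 ± 0.12 (adjusted p = 0.00165), against 0.62 ± 0.16 with all libraries (adjusted p = 0.251). With 11 libraries it missed the threshold when WT 1, WT 3, 5xFAD 2 or 5xFAD 3 was left out (adjusted p = 0.0517 to 0.115). Vtn itself had a log2 fold change of 0.09 ± 0.12 in 5xFAD against WT.

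In the list of barrier junctions and transporters 1 of 21 genes rose and 1 fell in 5xFAD. F11r, the junctional adhesion molecule JAM-A, had 19.2, 19.6 and 21.8 CPM in 5xFAD, against 12.8, 10.4 and 10.3 CPM in WT, a log2 fold change of 0.86 ± 0.17 (adjusted p = 0.0291 by edgeR). It kept its call without the Thy1-discordant pair (0.80, adjusted p = 0.0333), and lost it when WT 1, WT 2, WT 3, 5xFAD 2 or 5xFAD 3 alone was left out (adjusted p = 0.0524 to 0.127). Tfrc, the transferrin receptor that carries iron across the barrier, had 38.2, 26.1 and 36.4 CPM in 5xFAD, against 51.4, 42.7 and 57.7 CPM in WT, at -0.59 ± 0.15 (adjusted p = 0.0450). The Tfrc value was -0.26 after removing the GC and length trend (adjusted p = 0.298) and -0.48 without the Thy1-discordant pair (adjusted p = 0.198). Its call held without WT 2, Kcnip3 KO 1, 5xFAD 1 or the library labelled Kcnip3 KO-5xFAD 2 and was lost without any other single library (adjusted p = 0.0504 to 0.190). The difference in Cldn5 beside these, 0.37 ± 0.22, was uncalled, as was that of the efflux pump Abcb1a.

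Of 16 genes of barrier Wnt and Notch signalling, 1 rose in 5xFAD. Lrp5, a Wnt co-receptor, had 23.4, 24.96 and 30.7 CPM in 5xFAD, against 18.9, 18.8 and 14.3 CPM in WT, at 0.61 ± 0.15 (adjusted p = 0.0486 by edgeR, and 0.171 without the Thy1-discordant pair). Of 17 other pericyte genes 1 fell. Rgs4, a relative of Rgs5 that neurons also express, had 142, 86.9 and 94.1 CPM in 5xFAD, against 214, 166 and 214 CPM in WT, at -0.88 ± 0.21 (adjusted p = 0.0438, and 0.170 without that pair). The GC and length offset ended both calls, with Lrp5 at 0.66 (adjusted p = 0.0529) and Rgs4 at -0.80 (adjusted p = 0.0691), and Lrp5 was uncalled when scaled by library size only (0.54, adjusted p = 0.0748). Rgs4 lost its call when 1 of 6 libraries was left out, WT 1 or 3, 5xFAD 2 or 3, or either concordant library of Kcnip3 KO-5xFAD (adjusted p = 0.0526 to 0.182), and Lrp5 kept its call only without 5xFAD 1 or without the library labelled Kcnip3 KO-5xFAD 2 (otherwise adjusted p = 0.05003 to 0.202).

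The remaining lists held no called gene with all 12 libraries. Of 20 endothelial identity genes, 17 had a lower mean in Kcnip3 KO-5xFAD than in 5xFAD, with a median log2 difference of -0.21, and 17 a lower mean in Kcnip3 KO than in WT, with a median of -0.10. Without the Thy1-discordant pair these were 18 of 20 at -0.23 and 19 of 20 at -0.21. The all-gene medians of both comparisons with all libraries are given above, and those without the pair are not given here. Genes of a library are not independent, so these counts carry no test. The summed level of the 20 genes was 401 to 451 CPM in Kcnip3 KO-5xFAD and 486 to 506 CPM in 5xFAD. These sums did not overlap, and 7.29% of single genes tested were likewise lower there without overlap. In Kcnip3 KO the summed level was 354 to 455 CPM, overlapping 387 to 507 CPM in WT. The sums were not tested. Egfl7, a secreted endothelial factor and the highest of the 20 genes, was at -0.38 ± 0.15 in Kcnip3 KO-5xFAD against 5xFAD without overlap, as were 7.29% of all genes (unadjusted p = 0.0217, adjusted p = 0.441 by edgeR). Ly6c1 was at -0.29 ± 0.17 (adjusted p = 0.556). Pecam1 and Cldn5 were at -0.34 and -0.37 in that comparison, and neither was called.

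In VEGF, angiopoietin and PDGF signalling 18 of 19 genes were tested. Vegfa, the main angiogenic ligand, was at -0.46 ± 0.18 in 5xFAD against WT (adjusted p = 0.134) and at -0.69 ± 0.18 in Kcnip3 KO-5xFAD against Kcnip3 KO (adjusted p = 0.251 by edgeR). It was lower without overlap in both, as were 13.9% and 7.25% of all genes, while Vegfb was at 0.41 ± 0.15 in the first (adjusted p = 0.121). In the set without the Thy1-discordant pair, 1 gene of this list was called in Kcnip3 KO-5xFAD against Kcnip3 KO, Tgfbr2, a TGF-beta receptor of endothelium and microglia, at 0.88 ± 0.18 (adjusted p = 0.0233 by edgeR), against 0.55 ± 0.29 with all libraries (adjusted p = 0.541). It had 40.03, 14.8 and 34.9 CPM in Kcnip3 KO-5xFAD and 18.9, 16.3 and 25.8 CPM in Kcnip3 KO, the lowest value being that of the library labelled Kcnip3 KO-5xFAD 2. The endothelial activation list had 11 of 13 tested, with Cd34 at -0.12 ± 0.12 and Ackr1 at -0.09 ± 0.14 in 5xFAD against WT. Of the other smooth muscle genes 16 of 18 were tested, with Csrp1 at 0.43 ± 0.16 and Tpm1 at -0.16 ± 0.15 in 5xFAD against WT (adjusted p = 0.111 and 0.509 by edgeR). Csrp1 averaged 388 CPM, beside 30.8 CPM for Acta2 and 6.90 CPM for Tagln. How much of the Csrp1 and Tpm1 signal came from smooth muscle was not tested.

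Markers of other cells in or around the hippocampus varied between these libraries too. Summed microglial markers (10 genes, Csf1r the highest and Cst7 at 0 in some libraries) were 421 to 1023 CPM in Kcnip3 KO-5xFAD, 969 to 1234 CPM in 5xFAD, 357 to 400.5 CPM in Kcnip3 KO and 345 to 578 CPM in WT. They moved with Itgb5, F11r and Tgfbr2 across the groups, and their part in those results was not tested. Summed meningeal fibroblast markers (15 genes, Dcn the highest) were 281 to 373 CPM in Kcnip3 KO-5xFAD, 177 to 386 CPM in 5xFAD, 238 to 268 CPM in Kcnip3 KO and 276 to 461 CPM in WT. Choroid plexus markers (14 genes, Ttr the highest) summed to 554 to 5415 CPM in Kcnip3 KO-5xFAD, 350.0 to 10269 CPM in 5xFAD, 3789 to 5343 CPM in Kcnip3 KO and 247 to 4472 CPM in WT. None of these meningeal or choroid markers was at 0 in any library. Astrocyte markers (9 genes, Slc1a2 the highest) summed to 5076 to 7531 CPM in Kcnip3 KO-5xFAD, 6537 to 7639 CPM in 5xFAD, 4673 to 4893 CPM in Kcnip3 KO and 4335 to 5119 CPM in WT. Oligodendrocyte markers (8 genes, Mbp the highest) summed to 5575 to 7619 CPM in Kcnip3 KO-5xFAD, 5946 to 8261 CPM in 5xFAD, 4595 to 8812 CPM in Kcnip3 KO and 3492 to 5811 CPM in WT. Neuronal markers (8 genes, Slc17a7 the highest) summed to 5089 to 5476 CPM in Kcnip3 KO-5xFAD, 4834 to 5506 CPM in 5xFAD, 4982 to 6072 CPM in Kcnip3 KO and 5563 to 5874 CPM in WT. The neuronal sum was thus lower in all 5xFAD than in all WT libraries, as was Rgs4. Of all single genes tested, 13.9% were lower there without overlap. The sum of the hippocampal neuron markers went the other way, with overlap. It averaged 733 CPM in 5xFAD (582 to 857 CPM) and 574 CPM in WT (507 to 660 CPM). The part of neurons in the Rgs4 result was not tested.

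Beside the contractile genes, whose summed level was 80.2 CPM in the library labelled Kcnip3 KO-5xFAD 2, 59.4 CPM in WT 1, 16.0 CPM in Kcnip3 KO 1 and 12.95 CPM in the library labelled WT 3, the meningeal markers stood at 310.4, 461, 252 and 276 CPM. Red blood cell markers (5 genes, Hbb-bs the highest) were 240.5, 117, 74.9 and 167 CPM in those 4 libraries, and choroid markers 646, 4010.0, 4800.0 and 247 CPM. The choroid sum was low in 5xFAD 2 and Kcnip3 KO-5xFAD 1 as well, at 350.0 and 554 CPM, where the contractile sum was 38.3 and 31.7 CPM. Border macrophage markers (7 genes, Mrc1 the highest) summed to 3.97 to 22.9 CPM over all libraries, with the highest value in WT 1. The part of meningeal tissue, choroid plexus or blood in the spread of Acta2 and Tagln was not tested.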

How the data were processed

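Per the labels' protocols, hippocampal RNA was extracted with Trizol and made into libraries with a TruSeq mRNA kit. Per the submitters' processing notes the tools were HISAT2 2.1.0 and featureCounts on mm10, with FastQC 0.11.9, edgeR 3.38.4 and R 4.2.1. No source used here gives the annotation, the strand setting or the handling of reads with several matches. The deposited count table holds raw read counts for 55385 Ensembl genes. The second deposited table holds log2 TPM of the authors and served for levels per length and as an alternative.

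Symbols and positions came from GENCODE M21 (GRCm38, the same assembly as mm10), which matched 55144 genes. The 10 genes and all lists were chosen with earlier results of these data known. All 12 libraries entered a fit in edgeR 4.0.16 (R 4.3.3) with a coefficient per genotype, TMM scaling, filterByExpr with a minimum count of 10, and the quasi-likelihood test, with Benjamini-Hochberg adjustment over all 15905 genes tested and calls at an adjusted p under 0.05. SEs are the log2 fold change over the root of F, and 95% intervals use the t distribution of the fit. Fits were also run on simulated data, the outcome of which is not given here. A count of 3 corresponded to 0.265 to 0.391 CPM. Such values and Poisson intervals cover counting error only, as PCR copies are not told apart.

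Named genes were the 10, Kcnip3 and Thy1, and from each other vessel list up to 3 called genes with the smallest p, or the 2 with the highest mean where none was called, plus the highest marker of each other cell type. Tgfbr2 was named after its value was seen. Likeness is the root mean square difference of centred log2(CPM + 0.5) over 12 libraries. Protein sequences were not used here, and coding identity came from transcript sequences. Alternatives were 2 other scalings, no filter, a filter of 50 counts in 3 libraries, DESeq2 1.42.0, limma 3.58.1 on log2 TPM, only the compared groups, a replicate block, an offset for GC content and length, and left-out libraries. No replicate pair was a duplicate by chi-square.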

Additional observations from a re-analysis of the deposited data

How the results depend on the processing

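Of 124 counts of called vessel genes, over the 5 comparisons and all alternatives, 122 stayed at 0. Only the fit without a filter differed, with 1 gene called in 5xFAD against WT (Cldn5, 0.39, adjusted p = 0.0491) and 1 in Kcnip3 KO-5xFAD against Kcnip3 KO (Acta2, 0.74, adjusted p = 7.4e-05), and the cause was not tested. Leaving out each library in turn gave 0 in each comparison. Of 1240 values of single vessel genes, 1095 kept direction and call, 143 changed sign while uncalled and 0 reversed a call. The correlation of deviations from group means was -0.33 to 0.25 for 18 pairs of the same replicate number and -0.38 to 0.30 for 36 others. With 3 libraries per group these values cannot exclude a pairing by replicate number. The fit with a replicate block called 0 of the 10 genes in all 5 comparisons, as did the fit without it. Among the other vessel genes, limma also ended the calls of F11r (0.70, adjusted p = 0.0598), Tfrc (-0.74, 0.0576) and Lrp5 (0.46, 0.164) in 5xFAD against WT, and a fit of only the compared groups those of Tfrc (adjusted p = 0.0787) and Lrp5 (0.0715). With the block and without the Thy1-discordant pair F11r was at 0.79 (adjusted p = 0.0714). Over all genes the counts depended far more on the setting. In 5xFAD against WT 562 genes were called, against 2131 with no filter, 1379 by DESeq2, 238 by limma, 1234 with the replicate block, 101 with the GC and length offset, 107 with both, 209 without the Thy1-discordant pair (WT 3 and Kcnip3 KO-5xFAD 2), 221 with the block and without that pair, 216 when Kcnip3 KO 3 was also left out, and 1 to 2117 when each library was left out in turn. The split was 304 higher and 258 lower, but 202 and 265 with library size only and 71 and 30 with the GC and length offset. Kcnip3 KO-5xFAD against Kcnip3 KO gave 0 calls, but 721 with no filter, 134 by DESeq2, 1 with block and offset, 209 without that pair (202 with the block, 160 without Kcnip3 KO 3 as well) and 0 to 193 when each library was left out. In Kcnip3 KO against WT the 8 calls became 324 with no filter, 26 by DESeq2, 15 with only the compared groups, 5 with the block and without that pair, and 7 to 13 with each library left out. For Kcnip3 KO-5xFAD against 5xFAD the 11 calls became 351, 7 with the stricter filter, 29 by DESeq2, 6 without that pair and 6 to 12 with each library left out. The 0 calls of the interaction became 272 with no filter, 3 by DESeq2, 1 with the block, with or without the offset, 1 without that pair, and 0 to 4 with each library left out. Depth limits Tagln and Abcc9 most, with 27 to 130 and 32 to 74 counts.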
